A study of Homo sapiens with 4 samples.

Results

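The members described here were the transcripts of transcribed pseudogenes in cells that the labels call HepG2, a long-established line from a human liver tumour. They were the Ensembl transcripts of the deposited table whose gene carries a pseudogene class in GENCODE release 29 on chromosomes 1 to 22. This rule took 2948 of the 106179 transcripts, from 1137 genes, and used no measured value. Of these, 552 transcripts of 313 genes were of the processed type, 1866 of 702 genes of the unprocessed type, 506 of 115 genes of the unitary type and 24 of 7 genes of the polymorphic type. A further 126 transcripts of pseudogenes on X and Y were left out.

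A processed pseudogene is a copy of an mRNA that was reverse transcribed and inserted elsewhere, usually without introns. An unprocessed pseudogene arose by duplication of a gene or of part of it and often keeps exons and introns, whereas a unitary pseudogene is a gene that lost its function with no working copy left in the genome. Some of these loci are transcribed, and their RNAs can hold long stretches that are nearly the same as an mRNA of the parent gene.

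The study set wild-type HepG2 cells, 2 libraries, against HepG2 cells screened for resistance to oxaliplatin, 2 libraries, with long intergenic noncoding RNAs (lincRNAs) as its subject. Both groups are labelled as liver hepatocellular carcinoma, were grown in DMEM with fetal bovine serum and antibiotics, and carry no further treatment in the labels. Oxaliplatin is a platinum compound that forms DNA adducts. The labels do not state the drug dose, whether the resistant cells are 1 clone, whether drug was present at harvest, or whether replicates are separate cultures. The p-values therefore reflect only how far these 4 libraries spread, and that spread may be technical.

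RNA-seq gave estimated counts per transcript, with library totals of 38113398 and 34898860 in wild type replicates 1 and 2 and of 43473826 and 44063444 in resistant replicates 1 and 2. The table holds noncoding transcripts almost only, so the check of the cell type used the noncoding transcripts of marker genes. Of 23 hepatocyte genes, 15 had a transcript in the table, and 9 of these were at 0 in all 4 libraries, among them AFP, TTR, TF and SERPINA1. ALB, the albumin gene, had 8 counts in wild type replicate 1 and 0 in the others. The summed hepatocyte markers came to 56.2 and 67.3 CPM (counts scaled to the size of the library) in the wild-type libraries and 53.4 and 40.9 in the resistant ones, nearly all of it from CPS1. The noncoding transcripts in this table therefore do not bear out the labelled cell type, and mRNAs of these markers were not analysed here. Of 15 fibroblast and endothelial genes, 13 were in the table, with sums of 167 and 196 in the wild-type libraries and 178 and 148 in the resistant ones, led by VIM and FN1. COL1A2, LUM, SPARC and KDR of that list were at 0 throughout, and the 6 immune and blood genes in the table of 10 summed to between 0.229 and 0.759 CPM. The part of these markers in the results was not tested. In bulk RNA, fewer cells of a type and less RNA per cell cannot be told apart.

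Almost none of the members was the pseudogene body itself. On chromosomes 1 to 22 the reference holds 13961 models annotated as a pseudogene body, of which 1 was in the table, and 2990 other transcripts of pseudogene genes, of which 2947 were. The members were therefore processed transcripts and retained introns of these loci. In the processed type 532 were processed transcripts and 18 retained introns, in the unprocessed type 1718 and 148, and in the unitary type 439 and 67. The type is that of the gene in the reference: GTF2IP4 and AC073869.1 are classed as processed, although their transcripts have 24 and 18 exons.

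The sequences of the abundant members show how near they lie to the mRNA of a coding gene, which bears on every count given for them. GTF2I encodes the transcription factor TFII-I, and GTF2IP1 and GTF2IP4 are pseudogenes of it on the same chromosome. Over 3203 aligned bases GTF2IP1 transcript ENST00000622829 differed from GTF2I mRNA at 4 positions (99.88% identity), and over 3205 bases GTF2IP4 transcript ENST00000544802 differed at 5 (99.84%). Gaps were not counted as differences in these or in the other whole alignments below. The windows below run 5′ to 3′ on the transcript, from GENCODE release 29 on GRCh38. Each is the 120 bases with the most differences among windows of coding sequence inside 1 exon of each transcript, without gaps. Windows where the pseudogene lies over an annotated untranslated region were left out. For GTF2I and HERC2 the differences were summed over both pseudogenes. Capitals mark bases that differ from the coding gene. The GTF2I window lies at chr7:74732479-74732598, plus strand. The GTF2IP1 window lies at chr7:75213470-75213589, minus strand, and its letters are the same as those of GTF2IP4 at chr7:73179087-73179206, plus strand. HERC2 encodes a large ubiquitin ligase. The HERC2 window lies at chr15:28213831-28213950, minus strand, and the HERC2P2 window at chr15:22561581-22561700, plus strand. HERC2P3 has the same letters as HERC2P2 at chr15:20438681-20438800, minus strand. PMS2 encodes a DNA mismatch repair protein. The PMS2 window lies at chr7:5986918-5987037, minus strand, and the PMS2CL window at chr7:6737660-6737779, plus strand.
GTF2I: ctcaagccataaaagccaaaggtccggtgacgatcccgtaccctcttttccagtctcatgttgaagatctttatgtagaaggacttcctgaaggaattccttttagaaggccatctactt
GTF2IP1: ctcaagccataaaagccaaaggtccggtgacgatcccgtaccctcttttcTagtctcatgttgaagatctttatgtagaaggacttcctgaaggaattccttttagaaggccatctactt
HERC2: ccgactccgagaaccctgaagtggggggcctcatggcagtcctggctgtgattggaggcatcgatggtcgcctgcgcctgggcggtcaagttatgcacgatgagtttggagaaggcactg
HERC2P2: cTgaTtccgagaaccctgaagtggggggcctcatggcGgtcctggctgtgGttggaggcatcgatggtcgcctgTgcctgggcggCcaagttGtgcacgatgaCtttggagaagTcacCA
PMS2: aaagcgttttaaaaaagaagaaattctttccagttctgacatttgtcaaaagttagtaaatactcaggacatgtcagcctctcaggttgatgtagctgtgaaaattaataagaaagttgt
PMS2CL: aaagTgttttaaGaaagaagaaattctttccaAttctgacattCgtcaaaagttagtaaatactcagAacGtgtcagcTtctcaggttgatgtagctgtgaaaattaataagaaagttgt
In these windows GTF2IP1 held 1 difference, HERC2P2 held 11 and PMS2CL held 7. Over the whole alignments HERC2P2 transcript ENST00000619021 matched HERC2 at 97.94% of 4558 bases, HERC2P3 transcript ENST00000428453 at 97.99% of 3589, and PMS2CL transcript ENST00000486256 at 98.38% of 1605. With 4 differences in 3203 bases, most stretches of 150 bases, the read length, are the same in GTF2IP1 and GTF2I.

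Transcripts of 1 gene overlap in the same way, and for unitary pseudogenes this was the main form of sharing. The stretches below are the sequence that sets a transcript apart: each 31-base word in them occurs in no other GENCODE transcript. Capitals mark the 3 bases on each side of an exon junction; the stretches without capitals lie inside 1 exon. They are shown for 3 transcripts of EGFEM1P, where the split of counts differed between groups, for 3 transcripts counted in resistant cells only, and for 1 counted in a single library. EGFEM1P is a unitary pseudogene of a gene for a protein with EGF-like and EMI domains. Its transcripts ENST00000511230 and ENST00000502778 share the last exon of the stretch, ending at chr3:168519565 on the plus strand, and differ in the exon joined to it. The EGFEM1P ENST00000502332 stretch lies at chr3:168249561-168249650, plus strand. CMAHP is the human remnant of the enzyme gene for N-glycolylneuraminic acid synthesis, and its stretch spans chr6:25137797-25369975, minus strand, with an intron between. The NPIPB14P stretch lies at chr16:69978016-69978078, minus strand, the ABCA17P stretch at chr16:2362176-2362265, plus strand, and the AC106795.1 stretch at chr5:177809458-177809510, plus strand.
EGFEM1P ENST00000511230: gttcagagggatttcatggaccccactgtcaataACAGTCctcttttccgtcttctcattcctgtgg
EGFEM1P ENST00000502778: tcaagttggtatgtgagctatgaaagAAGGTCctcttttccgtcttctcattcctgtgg
EGFEM1P ENST00000502332: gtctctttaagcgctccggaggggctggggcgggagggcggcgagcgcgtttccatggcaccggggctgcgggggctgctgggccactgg
CMAHP ENST00000643807: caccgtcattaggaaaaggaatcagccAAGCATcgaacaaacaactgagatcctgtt
NPIPB14P ENST00000525562: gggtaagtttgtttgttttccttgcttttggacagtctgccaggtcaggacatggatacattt
ABCA17P ENST00000482286: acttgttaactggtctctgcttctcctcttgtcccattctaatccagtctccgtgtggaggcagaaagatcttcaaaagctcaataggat
AC106795.1 ENST00000515065: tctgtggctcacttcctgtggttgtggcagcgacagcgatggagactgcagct
The CMAHP transcript is 2790 bases long and has 27 such words of its own, all at 1 junction. AC106795.1 ENST00000515065 has 23 in its stretch, whereas ABCA17P ENST00000482286 has 861 in a row, of which 90 bases are shown.

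The types differed in how much sequence they share. Among all members, a median of 22.6% of the 31-base words of a transcript also occurred in transcripts of other genes. The median was 38.6% in the unprocessed type, 16.8% in the processed type and 0.744% in the unitary type. In unitary transcripts a median of 78.3% of the words occurred only within the same gene but in more than 1 of its transcripts. Words found in a single transcript made up a median of 30.2% in the processed, 13.3% in the unprocessed and 10.04% in the unitary type. A match to a coding mRNA at 90% identity or more over at least 20% of the member was found for 1143 members (38.8%), at a median identity of 95.8%. This held for 48.2% of unprocessed, 36.1% of processed and 6.52% of unitary transcripts. Exons of 396 members overlapped an exon of a coding gene on either strand; whether the library kit marks strand is not given in the sources used here, so such reads cannot be told apart.

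**Figure D1:**
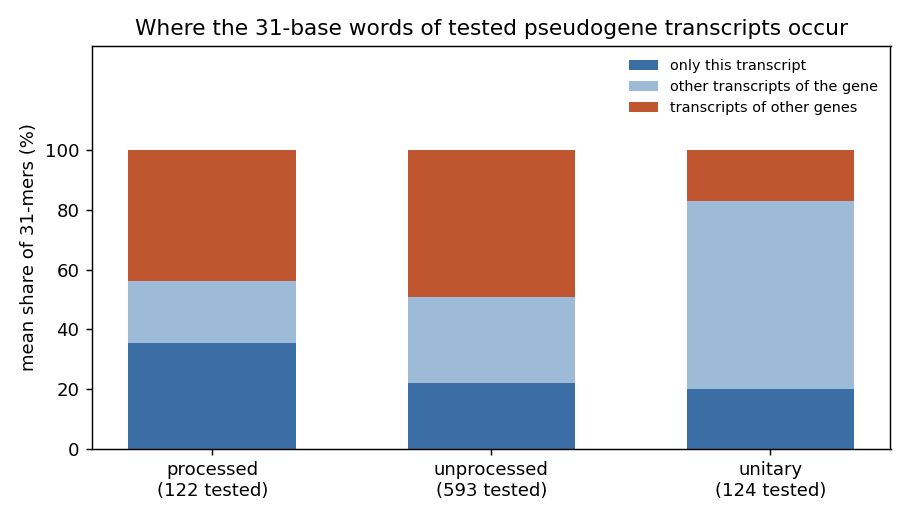
Mean share (%) of the 31-base words of the tested pseudogene transcripts that occur in this transcript only, in other transcripts of the same gene only, or in transcripts of other genes, for the processed (122 tested), unprocessed (593) and unitary (124) types. Sharing with other genes takes a mean of 43.8% of words in the processed and 49.3% in the unprocessed type, and 16.9% in the unitary type, where sharing within the gene prevails at 63.1%.

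Pseudogene transcripts took a small share of the counts. They held 1.38% and 1.41% of all counts in the wild-type libraries and 1.66% and 1.42% in the resistant ones, with means of 1.39% ± 0.0205 and 1.54% ± 0.173 (SD, n = 2 each). The groups did not overlap, and the difference of 0.152 percentage points was smaller than the SD of the resistant pair. Resistant replicate 1 set most of it: without that library the difference was 0.0297 points. A single transcript, AC106795.1 ENST00000515065, had 52914 counts in resistant replicate 1 and 0 in the other 3 libraries, and without it the difference was 0.0909 points. With 2 libraries against 2 an exact permutation test cannot go below p = 0.33, so no test of the share was made.

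Unprocessed pseudogenes led this share in every library. They took 0.988% and 0.961% of counts in the wild-type libraries and 1.21% and 1.04% in the resistant ones. The processed type took 0.270% and 0.336% in the wild-type libraries and 0.313% and 0.256% in the resistant ones, and its groups overlapped. The unitary type took 0.118% and 0.109% against 0.139% and 0.127%, with means of 0.113% ± 0.00641 and 0.133% ± 0.00875 (SD, n = 2 each), and its groups did not overlap. That rested on CMAHP ENST00000643807, with 12324 counts in resistant replicate 1: without it the unitary share was 0.111% and 0.126% in the resistant libraries, and the groups overlapped. The unprocessed groups did not overlap without AC106795.1 ENST00000515065 either, at 1.09% and 1.04% in the resistant libraries. For scale, lincRNA transcripts on the same chromosomes took a mean of 3.09% ± 0.351 of wild-type and 3.19% ± 0.0388 of resistant counts (SD, n = 2 each).

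**Figure D2:**
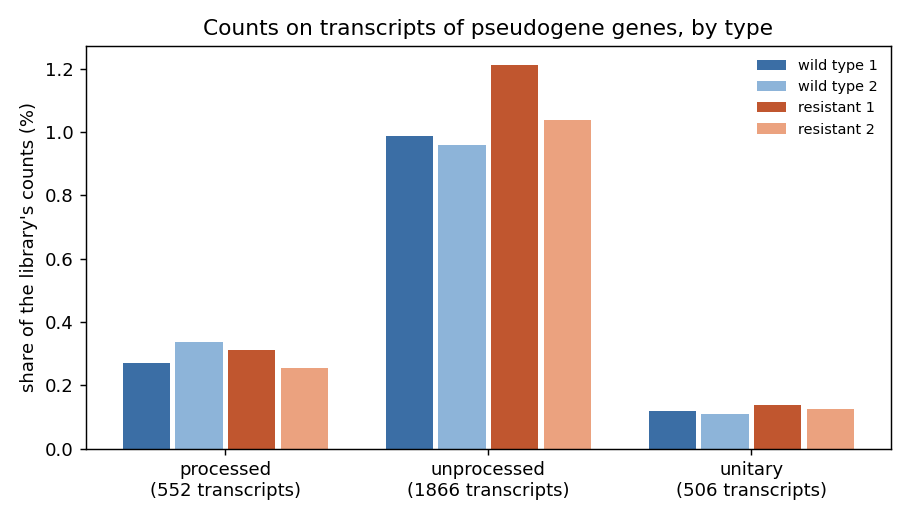
Share (%) of all counts of each library that fell on transcripts of processed, unprocessed and unitary pseudogenes; each bar is 1 library, with no error bar. Unprocessed transcripts hold 0.961% to 1.21% of the counts, and the 2 resistant bars lie above the 2 wild-type bars for the unprocessed and unitary types but not for the processed type. Without CMAHP ENST00000643807, the unitary bar of resistant replicate 1 would stand at 0.111%, between the wild-type bars.

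Of the 2948 members, 1292 (43.8%) had a count in some library, against 53.7% of the whole table, 27.6% of lincRNA transcripts and 43.4% of antisense transcripts. By type the shares were 46.3% for unprocessed, 40.4% for processed and 39.5% for unitary. Single libraries held between 874 and 981 members with a count. The 4 members of highest count took 25.4% of all member counts, the top 10 took 37.8% and the top 100 took 74.4%.

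The 10 members of highest mean CPM (here of the tested transcripts, after library scaling) were led by copies of GTF2I and HERC2. GTF2IP4 ENST00000544802 at chr7:73154938-73207283 had 43821 and 56433 counts in the wild-type libraries and 59419 and 36823 in the resistant ones. GTF2IP1 ENST00000622829 at chr7:75185396-75237696 had 40792 and 35833 against 57799 and 48318. The mean of GTF2IP4 was 1462 ± 348 CPM in the wild-type and 1073 ± 330 in the resistant pair, and that of GTF2IP1 was 1108 ± 33.6 and 1186 ± 120 (SD, n = 2 each). In CPM the groups overlapped for both. HERC2P2 ENST00000619021 had 29301 and 24355 counts in the wild-type libraries and 39913 and 34502 in the resistant ones, and HERC2P3 ENST00000428453 had 22808 and 16494 against 29877 and 22642. Their fitted log2 fold changes, resistant minus wild type, were 0.10 (SE 0.25) and 0.05 (SE 0.30).

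The other abundant members were also copies of coding genes. AC073869.1 ENST00000438378, a copy of the sphingomyelinase gene SMPD4, had 13596 and 13274 counts in the wild-type libraries and 17405 and 15732 in the resistant ones. BAGE2 ENST00000470054, which matches the histone methyltransferase gene KMT2C at 97.58% over 59.1% of its length, had 12473 and 10258 against 16700 and 18192. AC244154.1 ENST00000649858, a copy of the aminopeptidase gene NPEPPS at 99.18%, had 14310 and 6918 against 12045 and 11331. SMG1P3 is a pseudogene of the kinase gene SMG1, which acts in nonsense-mediated decay. Its transcript ENST00000522841 had 10970 and 9503 against 16844 and 10417 counts, and its transcript ENST00000437413, which matches SLC7A5 at 98.55% over 58.6% of its length, had 9700 and 6879 against 9283 and 5658. CCDC144B ENST00000618081 had 8139 and 3203 counts in the wild-type libraries and 10591 and 9382 in the resistant ones. Of these 6 transcripts, BAGE2 was the only one with both resistant libraries above both wild-type libraries in CPM, at 391 ± 33.5 against 328 ± 25.2 CPM (SD, n = 2 each), and its unadjusted edgeR p was 0.408. SMG1P3 ENST00000437413 was lower in both resistant libraries, at 166 ± 53.1 against 239 ± 43.1 CPM, with an unadjusted edgeR p of 0.265 and n = 2 each. Per kilobase of transcript, GTF2IP4 stood at 351 CPM over the 4 libraries, SMG1P3 ENST00000437413 at 344, GTF2IP1 at 318 and BAGE2 at 190, while the median of tested members was 2.83.

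**Figure D3:**
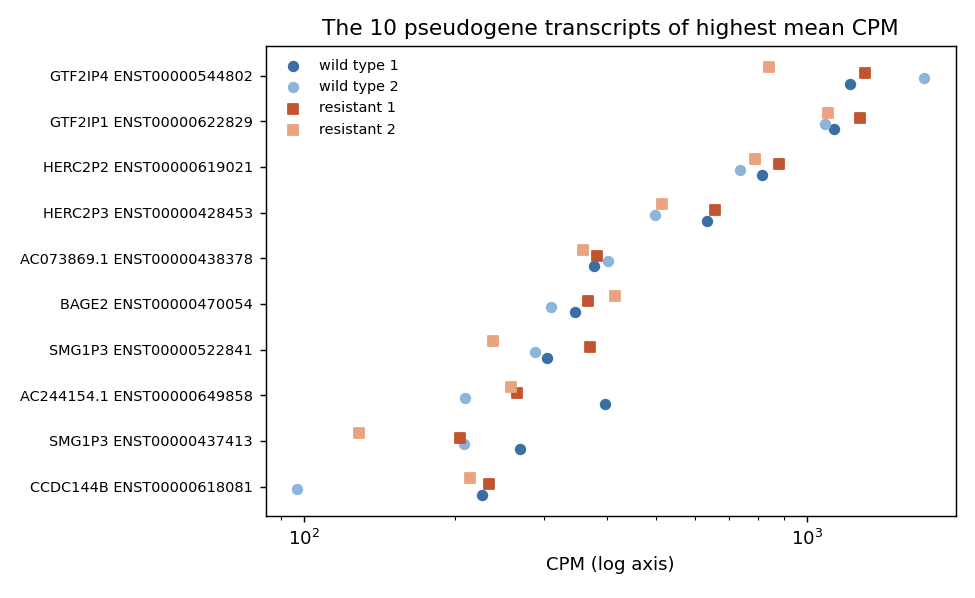
CPM on a log axis of the 10 pseudogene transcripts of highest mean, 1 point per library (circles wild type, squares resistant), not scaled to transcript length. GTF2IP4 and GTF2IP1 stand above the rest, and in most rows the points of the groups interleave; in the CCDC144B row wild type replicate 2 lies far below the other 3 libraries.

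The noncoding transcripts of the closest coding genes had counts of their own, which are sums over noncoding transcripts only. GTF2I had 1726 and 1348 counts in the wild-type libraries and 4303 and 1967 in the resistant ones, and HERC2 had 1277 and 1292 against 1647 and 1308. KMT2C had 2255 and 3450 against 15820 and 6211, and NPEPPS 4066 and 7498 against 19446 and 7062. In KMT2C both resistant libraries were above both wild-type libraries, with a log2 fold change of 1.54 (SE 0.60) and an adjusted p of 0.623 in the edgeR test of gene sums. SDHA had 44597 and 64848 counts against 46416 and 30138, a log2 fold change of -0.92 (SE 0.38) with no overlap after scaling, while the sum of its pseudogene SDHAP1 had 2465 and 2415 against 5028 and 4396.

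No pseudogene transcript passed the test between groups. The edgeR quasi-likelihood test took 839 members among 42393 transcripts (122 processed, 593 unprocessed, 124 unitary), which held 95.7% of the member counts. At a Benjamini-Hochberg adjusted p of 0.05 it called 0 members, and 0% of all transcripts tested. The smallest adjusted p was 0.329. At an unadjusted p under 0.05 there were 107 members (12.8%), against 7.74% of all transcripts tested. Of these, 64 (7.63%) had the higher mean in resistant cells, against 4.56% of all, and 43 (5.13%) the lower mean, against 3.18%. By type the shares were 13.9% of processed, 12.3% of unprocessed and 13.7% of unitary transcripts. DESeq2 called 87 members (10.4%), 53 higher and 34 lower, against 5.33% of all transcripts, and limma-voom called 0. The median log2 fold change of the members was -0.0043 (processed -0.02, unprocessed 0.04, unitary -0.18), beside 0.02 over all transcripts tested, and 49.9% of the members had a log2 fold change above 0, beside 51.1% of all.

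The spread between libraries of a group was wide in these counts. The common biological coefficient of variation of the transcript test was 0.970. Among members with 100 counts or more in at least 1 library of the wild-type pair, 111 of 539 (20.6%) had 0 in the other library, against 13.0% in the whole table. In the resistant pair it was 116 of 581 (19.97%), against 12.12%. Unitary transcripts stood at 34.2% in the wild-type and 24.7% in the resistant pair. The same share was 27.5% for lincRNA transcripts and 8.45% for noncoding transcripts of coding genes in the wild-type pair. Groups that did not overlap in CPM were found for 352 tested members (42%), against 40.3% of all transcripts. The resistant pair was higher in 165 (19.7%, against 21.4%) and lower in 187 (22.3%, against 18.9%). These shares lie near those of the table as a whole.

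**Figure D4:**
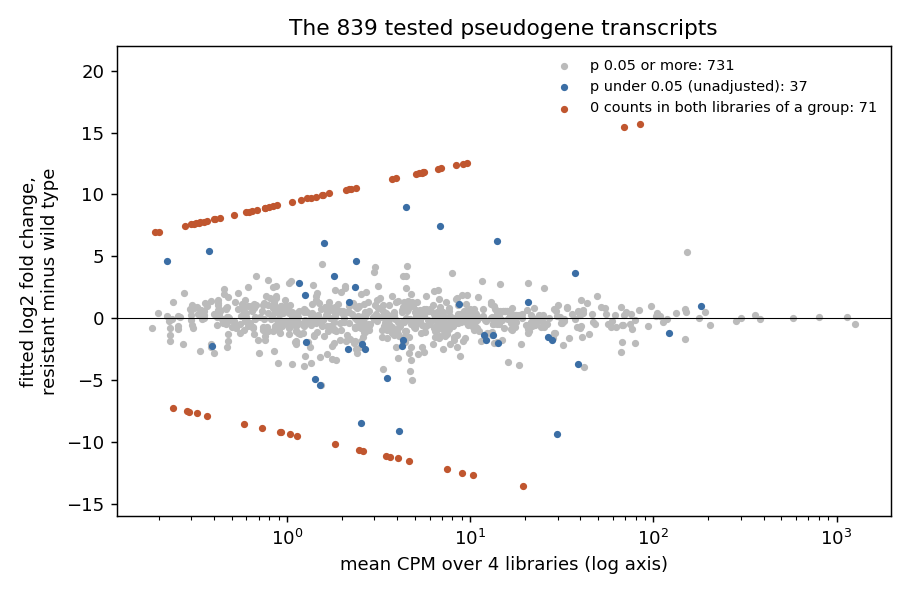
Fitted log2 fold change (resistant minus wild type) against mean CPM over 4 libraries on a log axis for the 839 tested pseudogene transcripts; grey marks 731 with p 0.05 or more, blue 37 with unadjusted p under 0.05 and a count in both groups, orange 71 at 0 in both libraries of a group. The orange points form 2 arms because their fitted fold change depends on the mean and a small constant, so their height is not a measured fold.

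Counts in 1 group only made up most of the small p-values: 37 of the 107 members had a count in both groups. Of the tested members, 49 (5.84%) had 0 counts in both wild-type libraries and 10 or more in both resistant ones, against 2.53% of all transcripts tested. In the other direction 22 (2.62%) had 0 in both resistant libraries, against 1.13%. A member that passed the filter on low counts through 1 group alone had to differ, so these counts describe the table and are no support for a change. Folds for these transcripts are lower bounds against 3 counts per library, which cover counting error only.

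Of the 49 members with counts in resistant cells only, 33 were unprocessed, 8 processed and 8 unitary. EGFEM1P ENST00000502778 had 0 and 0 counts in the wild-type libraries and 4807 and 10118 in the resistant ones, 168 ± 88.3 CPM (SD, n = 2) and at least 1932-fold higher. ABCA17P ENST00000482286, a retained intron of an ABC transporter pseudogene, had 0 and 0 against 917 and 721, at least 210-fold higher. EMBP1 ENST00000618253, a copy of the embigin gene, had 0 and 0 against 708 and 1003, at least 221-fold higher; it holds all counts of its gene. In all 3, both resistant libraries had counts and no wild-type library did. SVIL-AS1 ENST00000608994 had 454 and 526 counts in resistant cells and MRPL45P2 ENST00000425159, from a copy of a mitochondrial ribosomal protein gene, had 401 and 539, both with 0 in wild type. UBE2Q2P1 ENST00000558251, from a copy of a ubiquitin-conjugating enzyme gene, had 203 and 223, and PDIA3P1 ENST00000440377, from a copy of a disulfide isomerase gene of the endoplasmic reticulum, 189 and 184. The unadjusted edgeR p-values of these 7 transcripts lay between 0.00158 and 0.00278 and their adjusted p-values were 0.329 or more. Of the counts of their genes, the SVIL-AS1 transcript held 5.31%, MRPL45P2 36.1%, UBE2Q2P1 12.4%, PDIA3P1 67.3% and ABCA17P 78.5%. Other transcripts of each of these genes had counts in wild type, so the genes were not silent there. The SVIL-AS1 and EMBP1 transcripts have 0% of words of their own. Of the abundant members of this kind, a pair differed widely between the resistant libraries: CMAHP ENST00000643807 had 12324 and 235 counts and RNF216P1 ENST00000403969 had 162 and 1315.

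Among the 10 members of smallest p with more in resistant cells, 2 had counts in both groups. NPIPP1 ENST00000534799, of the family around nuclear pore complex interacting protein, had 10 and 15 counts in the wild-type libraries and 1614 and 862 in the resistant ones. Its mean was 0.366 ± 0.125 against 27.6 ± 11.2 CPM (SD, n = 2 each), 75.4-fold higher, with an unadjusted edgeR p of 0.00152. Its sequence is 90.6% shared with other genes. The NPIPP1 gene sum, with 399 and 449 against 1875 and 985 counts, gave a log2 fold change of 1.36 (SE 0.45). SEPT7P2 ENST00000413875, a retained intron from a copy of a septin gene, had 2 and 1 counts in the wild-type libraries and 121 and 158 in the resistant ones. The SEPT7P2 gene sum had 854 and 286 against 3225 and 3651 counts, a log2 fold change of 2.24 (SE 0.61). Both gene sums were higher in both resistant libraries, with adjusted p-values of 0.548 and 0.466 in the edgeR test of gene sums.

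Of the 22 members with counts in wild type only, 16 were unprocessed, 3 processed and 3 unitary. GOLGA2P10 ENST00000612379, from the family of the Golgi matrix gene GOLGA2, had 615 and 422 counts in the wild-type libraries and 0 and 0 in the resistant ones, at least 222-fold lower. AC004980.1 ENST00000423084, with part of its length like the nucleoporin gene POM121, had 884 and 1765 against 0 and 0, at least 580-fold lower. LPAL2 ENST00000335388, related to the apolipoprotein(a) gene LPA, had 263 and 370 against 0 and 0, at least 138-fold lower. In each of these both wild-type libraries had clearly more than the floor of 3 counts. AC073264.3 ENST00000643130, which overlaps exons of TCAF2, had 419 and 814, MRPS31P4 ENST00000613769 had 147 and 210 and LINC00869 ENST00000435115 had 159 and 95, all against 0 and 0. AC092978.1 ENST00000474979, a unitary transcript, had 76 and 67 against 0 and 0. GTF2IP20 ENST00000608760, a retained intron, had 98 and 92 against 3 and 5. For these 8 the unadjusted edgeR p lay between 0.0018 and 0.00389. The transcripts of GOLGA2P10, AC073264.3 and MRPS31P4 have 0% of words of their own. Of their words, 90.9%, 93.4% and 100% occur in other genes. In the rest of the 8, words of their own made up between 8.13% and 62.0%. How shared reads were split was not tested. Summed per gene, GOLGA2P10 had 1075 and 1707 counts in wild type, against 303 and 326 in the resistant libraries, a log2 fold change of -2.55 (SE 0.42, adjusted p 0.349 in edgeR). The LPAL2 sum had 883 and 914 against 1171 and 877 and LINC00869 2115 and 3964 against 1544 and 1170, and in the LPAL2 sum the groups overlapped.

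Several genes had transcripts that went opposite ways. EGFEM1P at chromosome 3 is an example. Besides ENST00000502778, its transcript ENST00000511230 had 5941 and 5723 counts in wild type, against 3226 and 3310 in the resistant libraries, a log2 fold change of -1.21 (SE 0.29, unadjusted edgeR p 0.0179). ENST00000502332 had 5569 and 3271 against 579 and 2253, with -1.99 (SE 0.86). As the stretches printed above show, ENST00000511230 and ENST00000502778 share their last exon and are told apart by the exon joined to it. The EGFEM1P gene sum had 11598 and 9041 counts against 8662 and 15741, a log2 fold change of -0.13 (SE 0.40), and its groups overlapped. The 3 transcripts held 40.4%, 33.1% and 25.9% of the gene's counts.

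By a rule of a log2 fold change of at least 2 each way with no overlap between groups, 12 of the 181 pseudogene genes with 2 or more tested transcripts (6.63%) had transcripts in both directions, against 3.05% of the 7418 genes of that kind in the whole table. A transcript counted in 1 group only meets 1 side of this rule by construction. Such transcripts were 5.84% (resistant only) and 2.62% (wild type only) of tested members, against 2.53% and 1.13% of all transcripts. The higher share of genes is therefore no support for a change. In CMAHP, ENST00000643807 had 0 and 0 against 12324 and 235 counts and ENST00000377989 had 146 and 372 against 844 and 2939, while ENST00000642554 had 1037 and 3792 against 312 and 184. The CMAHP sum of 16 transcripts was 5748 and 5021 in the wild-type libraries and 14669 and 4905 in the resistant ones, and its groups overlapped. In CENPBD1P1, ENST00000487264 had 0 and 0 against 888 and 316 and ENST00000473164 had 552 and 64 against 52 and 22, and the sum was 4976 and 4376 against 5393 and 4859, a log2 fold change of -0.25 (SE 0.23). The 4424, 4312, 4453 and 4521 counts of ENST00000493504 made up most of the CENPBD1P1 sum. Of the words of ENST00000487264 and ENST00000473164, 82.2% and 82.7% occur in other genes.

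Others of these genes are GOLGA2P7, NPIPB14P and DUXAP10. In GOLGA2P7, ENST00000559654 had 517 and 894 counts against 0 and 0 and ENST00000557881 had 40 and 298 against 0 and 1, while ENST00000400817 had 0 and 0 against 354 and 544. The GOLGA2P7 sum had 4907 and 5680 against 3128 and 1897, lower in both resistant libraries, with a log2 fold change of -1.47 (SE 0.36, adjusted edgeR p 0.422). NPIPB14P has 2 transcripts in the table, and each was counted in 1 group only: ENST00000526720 had 301 and 256 against 0 and 0 counts and ENST00000525562 had 0 and 0 against 366 and 341. The NPIPB14P sum was 301 and 256 against 366 and 341, with a log2 fold change of -0.04 (SE 0.33). In DUXAP10, a double homeobox pseudogene, ENST00000624585 had 84 and 251 against 0 and 0 and ENST00000549065 had 0 and 0 against 185 and 797. DUXAP10 ENST00000648085 split the libraries within each group, at 172 and 6317 counts in the wild-type libraries and 5008 and 0 in the resistant ones, and 96.5% of its words occur in other genes. For NPIPB14P the share was 100% in ENST00000526720 and 97.1% in ENST00000525562. The GOLGA2P7 transcripts named here and DUXAP10 ENST00000549065 have 0% of words of their own, whereas DUXAP10 ENST00000624585 has 60.1%. How shared reads were split between transcripts was not tested.

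**Figure D5:**
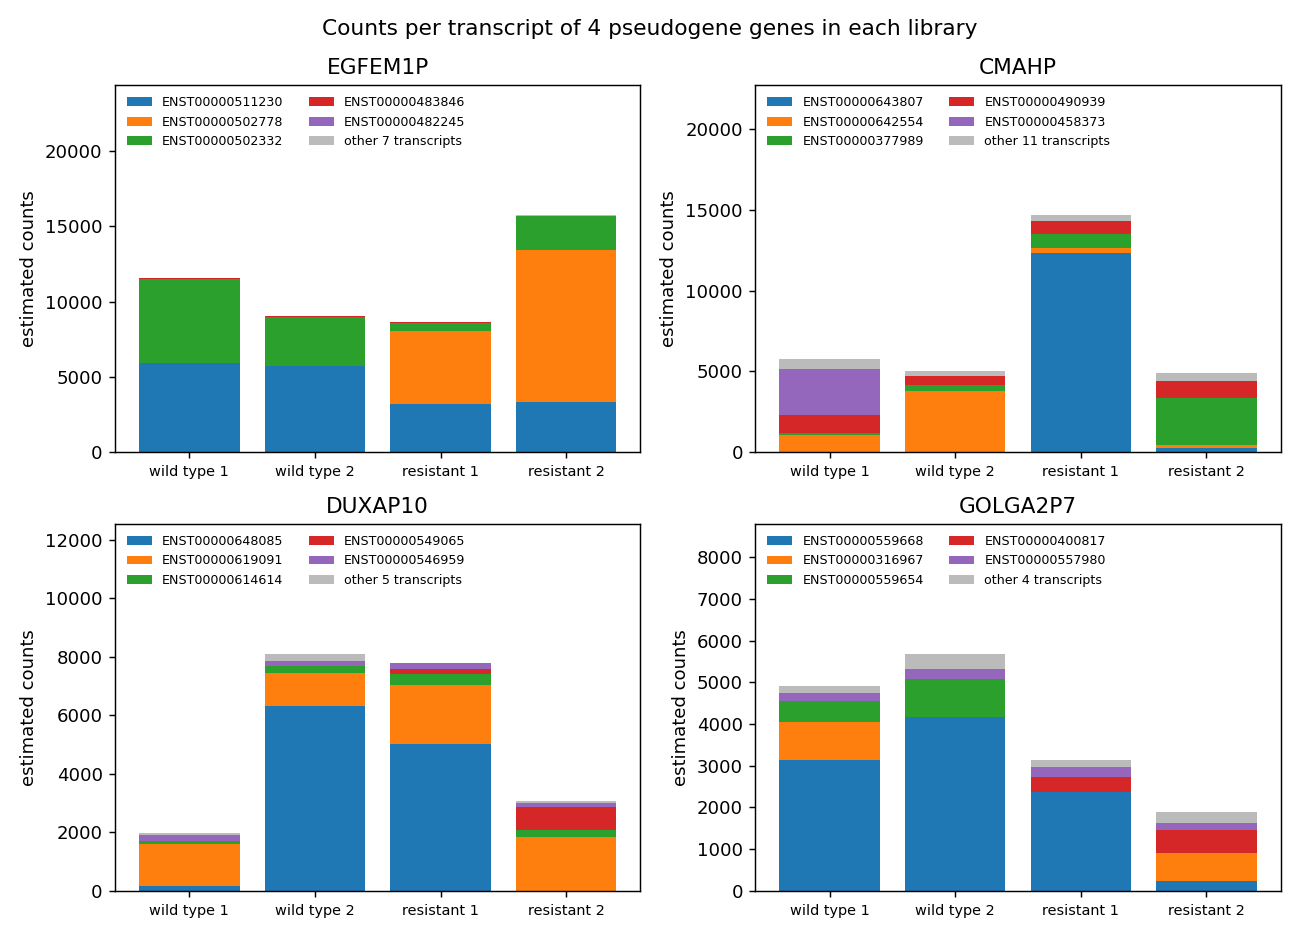
Estimated counts per transcript of EGFEM1P, CMAHP, DUXAP10 and GOLGA2P7, stacked in 1 bar per library; colours are the transcripts of highest count of each gene and grey is the rest. In EGFEM1P the orange ENST00000502778 is at 0 in both wild-type bars and holds 4807 and 10118 counts in the resistant bars, while in CMAHP each library is led by a different transcript.

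Summed over transcripts, 373 pseudogene genes among 13745 genes were tested and 0 were called, as were 0% of all genes (smallest adjusted p 0.323, edgeR). At an unadjusted p under 0.05 there were 41 (11%), against 8.67% of all genes, with 20 higher (5.36%, against 4.74% of all genes) and 21 lower (5.63%, against 3.93%). DESeq2 called 16 (4.29%), against 4.61% of all genes, and limma-voom called 0. The median log2 fold change was -0.02, beside 0.01 over all genes. PMS2CL, the mismatch repair pseudogene, was among those with a small unadjusted p. Its transcript ENST00000486256 had 4533 and 3930 counts in the wild-type libraries and 12906 and 8821 in the resistant ones, 122 ± 4.85 against 242 ± 58.5 CPM (SD, n = 2 each), a log2 fold change of 0.99 (SE 0.33). The PMS2CL gene sum gave 0.98 (SE 0.29) with an adjusted edgeR p of 0.513, and both resistant libraries were above both wild-type ones. The noncoding transcripts of PMS2 itself had 125 and 196 against 157 and 311 counts.

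Described by lists of pseudogenes of related function, no list held a member called by edgeR. DESeq2 called 33 of the 334 tested transcripts that stand in a list. It called 10.4% of all tested members and 5.33% of all transcripts tested. The 33 include ABCA17P ENST00000482286, with an adjusted p of 9.11e-10 in DESeq2, 0.329 in edgeR and 0.615 in limma-voom. That transcript was at 0 in both wild-type libraries and passed the filter through the resistant group alone, so its p is no support for a change. The counts below at an unadjusted edgeR p under 0.05 stand beside 4.56% higher and 3.18% lower over all transcripts tested. For liver and other cancer pseudogene RNAs, 37 of 92 members were tested and 5 were higher and 1 lower at that p, with a median log2 fold change of 0.32. This list holds DUXAP9 ENST00000621361, at 5101 and 3463 counts in the wild-type libraries and 4826 and 10987 in the resistant ones, and the unitary WFDC21P ENST00000587298, at 2101 and 2418 against 2132 and 2069. In CPM the DUXAP9 groups overlapped, while WFDC21P was lower in both resistant libraries, at 47.0 ± 0.191 against 65.7 ± 10.5 CPM (SD, n = 2 each) and an unadjusted edgeR p of 0.222. The DNA repair and p53 list had 42 of 81 tested, 3 higher and 1 lower, with a median of 0.17. The duplicated loci list had 202 of 354 tested, 11 higher and 12 lower, with a median of -0.14. The unitary list had 37 of 142 tested, 2 higher and 3 lower, with a median of -0.26. This list is not the unitary type of the reference, which has 506 transcripts, and it holds ABCA11P, classed as processed. These medians stand beside 0.02 over all transcripts.

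Pseudogenes of transporters and drug enzymes were seldom testable. Of 48 members of the drug metabolism and transport list 6 were tested, 2 of them higher, with a median of 0.76. ABCA11P ENST00000451020, a transporter pseudogene, had 3408 and 1003 counts in the wild-type libraries and 3092 and 3674 in the resistant ones. ABCA17P ENST00000469908 had 246 and 0 against 185 and 0. These counts differed within the wild-type pair by more than between the groups. Of the wider family list of ABC, cytochrome P450, UGT and GST names, 8 of 52 members were tested, 3 higher and 0 lower, with a median of 0.76. SLC25A24P1 ENST00000411846, a mitochondrial carrier pseudogene that this name search also took, had 3836 and 3215 against 4371 and 6011.

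Genes that every cell uses are the classical source of processed copies. Of the loci named in this paragraph, however, RPL9P9 and SUMO2P17 are of the processed type. RPL23AP82, UBE2Q2P1, CCT6P3 and SDHAP1 are of the unprocessed type. Ribosomal protein pseudogenes had 23 of 66 members tested, 1 higher and 1 lower, with a median of -0.64. The 23 come from 14 genes. Of them 15 had the lower and 8 the higher mean in resistant cells, where 51.1% of all transcripts tested had a log2 fold change above 0. The direction of the list was not tested. RPL9P9 ENST00000418824 had 928 and 773 counts in the wild-type libraries and 703 and 932 in the resistant ones, and RPL23AP82 ENST00000462238 had 854 and 0 against 1538 and 112. The chaperone, proteasome and ubiquitin list had 13 of 22 tested, 3 higher and 0 lower, with a median of 1.28. UBE2Q2P1 ENST00000561403 had 146 and 36 against 249 and 1575 counts, SUMO2P17 ENST00000508743 had 286 and 9 against 26 and 1297, and CCT6P3 ENST00000419314 had 0 and 872 against 296 and 698. In these 3 the libraries of at least 1 group lay far apart. The glycolysis and metabolism list had 12 of 20 tested, 0 higher and 1 lower, with a median of 0.43. SDHAP1, of the succinate dehydrogenase gene SDHA, led it: ENST00000427841 had 941 and 437 against 2008 and 1636, ENST00000354559 had 404 and 465 against 672 and 1025, and ENST00000427415 had 553 and 570 against 678 and 740.

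Zinc finger pseudogenes had 20 of 73 tested, 1 higher and 0 lower, with a median of 0.62. The 20 come from 8 genes, and 15 of them had the higher mean in resistant cells. Over all transcripts tested, 51.1% had a log2 fold change above 0. Transcripts of 1 gene are not separate replicates, and the direction of the list was not tested. The unitary zinc finger locus ZNF271P had ENST00000399070 at 2132 and 2340 counts in the wild-type libraries and 4459 and 4657 in the resistant ones, 65.0 ± 8.24 against 102 ± 5.71 CPM (SD, n = 2 each), and an unadjusted edgeR p of 0.113. Its groups did not overlap. Cytoskeleton and keratin pseudogenes had 11 of 79 tested with 0 higher and 1 lower, and ACTG1P17 ENST00000561222, of the actin family, had 212 and 482 against 73 and 223. HMG and other chromatin pseudogenes had 5 of 15 tested with 0 in either direction, among them HMGB3P22 ENST00000442010 at 257 and 241 against 354 and 394. HLA class I pseudogenes had 2 of 11 tested, with HLA-L ENST00000482052 at 281 and 371 against 450 and 340. None of the 5 hnRNP and splicing factor members or of the 1 translation factor member was tested.

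Sharing of sequence did not order the small p-values in 1 direction. The share of tested members with an unadjusted p under 0.05 was 15.4% of the 162 with under 1% of words of their own, 14.7% of the 204 with 1 to 10%, 10.3% of the 263 with 10 to 40% and 11.9% of the 210 with 40% or more. By sharing with other genes it was 15.5% under 10%, 14.3% from 10 to 50%, 7.72% from 50 to 90% and 15.04% at 90% or more. By the number of transcripts of the gene in the table it was 10.1% for 1, 11.2% for 2 to 5 and 15.01% for 6 or more. These shares are given as a description, and their differences were not tested.

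The 2109 members that were not tested included 1656 at 0 in every library and 453 with a count. Among the latter, 90 had 100 counts or more in some library. The highest was AC106795.1 ENST00000515065, named here after its values were seen. It matches the mRNA export gene THOC3 at 99.68% over its whole length, 89.6% of its words occur in other genes, and 52914 counts in resistant replicate 1 stood against 0 in the other 3 libraries. CRYBB2P1 ENST00000354451 had 3379 counts in resistant replicate 2 alone, CMAHP ENST00000458373 had 2851 in wild type replicate 1 alone and RPL23AP82 ENST00000496652 had 2223 in resistant replicate 2 alone.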

How the data were processed

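RNA-seq libraries from 2 wild-type and 2 oxaliplatin-resistant HepG2 samples were compared, grouped by the labels. The authors deposited estimated counts per transcript as whole numbers; that unit was read from the values, which are whole and sum to different totals. For the aligner, counting tool, annotation and strand setting, what was used is not given in the sources used here. A mouse build, mm9, stands in the submitters' processing notes, whereas the identifiers are human.

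Identifiers were matched to GENCODE release 29 (GRCh38). Transcripts were tested with edgeR 4.0.16 (R 4.3.3): TMM scaling, filter at a minimum count of 10, quasi-likelihood test, two-sided, Benjamini-Hochberg over all transcripts tested, threshold 0.05, with the same test on gene sums. Gene sums and transcripts have their own CPM scales. Alternatives were RLE factors, no filter, a minimum count of 30, DESeq2 1.42.0, limma-voom (limma 3.58.1), each library left out, and the replicate number as a block. A count of 0 allows up to 3 counts, 0.0660 to 0.0908 CPM, for counting error only. The scripts were tested on simulated data. Sharing was counted as 31-base words over all GENCODE transcripts, and coding copies were found with BLAST 2.17.0 (e-value 1e-10).

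Named were, in each direction, the 10 members of smallest p; the 10 of highest mean; the 4 of highest mean per type; up to 3 per list; the 5 of highest mean at 0 in each group; and transcripts of the 4 genes of highest sum with opposite transcripts. The members and the 15 lists were chosen with earlier results of these data known.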

Additional observations from a re-analysis of the deposited data

How the results depend on the processing

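With 2 libraries a group, 0 called transcripts and 0 called genes held under RLE factors, no filter, a minimum count of 30, limma-voom, the block and each left-out library (range 0 to 0). DESeq2 called 87 transcripts and 16 genes; the cause was not tested. Members at an unadjusted p under 0.05 numbered 107 in edgeR (12.8%, against 7.74% of all transcripts) and 84 to 132 under other scalings, filters and tools. The number tested changed with the filter. The share was 12.6% with RLE factors (against 7.74%), 8.44% without a filter (against 5.38%) and 11.9% at a minimum count of 30 (against 7.51%). It was 15.7% in DESeq2 (against 11.1%) and 10.7% in limma-voom (against 7.32%). With 1 library left out, the lone library of a group is assumed to vary like the other group. The difference in share was 0.152 percentage points, and 0.107 as a share of Ensembl transcripts only. With 1 library left out it ranged from 0.0297 (without resistant replicate 1) to 0.274 (without resistant replicate 2) points. It was 0.0909 without AC106795.1 ENST00000515065, an alternative chosen after seeing the data. The unitary difference of 0.0198 points ranged from 0.0136 to 0.0259 with 1 library left out and was 0.00532 without CMAHP ENST00000643807, chosen likewise; the cause was not tested. The unprocessed difference of 0.15 points ranged from 0.0629 (without resistant replicate 1) to 0.238 and was 0.0896 without AC106795.1 ENST00000515065.

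With the replicate block, 70 members had an unadjusted p under 0.05 (8.34%, against 4.63% of all transcripts). Same-numbered libraries did not deviate together (r = 0.01 over transcripts, -0.02 over genes). With a spread this wide within groups, that correlation cannot decide whether they were prepared together, and the labels do not say.

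Of 699 log2 fold changes of the 70 named transcripts under other settings, 641 kept direction and side of the threshold, 29 passed it (all in DESeq2) and 29 reversed, in 18 transcripts. CCT6P3 (-0.24) became 4.34 in limma-voom and 3.52 with the block, and -1.24 to 11.87 with 1 library left out. The leave-one-out ranges of the other 17 were -0.09 to 0.43 for SLC25A24P1, -0.13 to 0.05 for SDHAP1 ENST00000427415, -0.13 to 0.23 for HERC2P3, -0.18 to 0.24 for ZNRF2P2, -0.32 to 1.32 for ABCA11P, -2.21 to 12.54 for RPL23AP82, -10.01 to 9.38 for ABCA17P ENST00000469908, -0.35 to 0.18 for HLA-L, -2.84 to 5.77 for SUMO2P17, -0.32 to 0.32 for SMG1P3 ENST00000522841, -0.31 to 1.09 for ZNF252P, -0.71 to 0.01 for WASH3P, -0.02 to 1.20 for CCDC144B, -0.22 to 1.02 for DUXAP9, -0.01 to 0.19 for GTF2IP1, -14.85 to 3.53 for DUXAP10 ENST00000648085 and -0.60 to 0.32 for AC244154.1. Among 10 gene sums, the ranges that crossed 0 were -0.50 to 1.05 for CMAHP, -0.64 to 0.25 for EGFEM1P and -1.12 to 1.12 for DUXAP10.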

Other observations

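Polymorphic pseudogenes, where some human genomes carry a working copy, gave 24 transcripts, of which 6 had a count in some library and 0 were tested.

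One tested transcript that the naming rule did not take, GUSBP1 ENST00000508260 from a copy of the beta-glucuronidase gene GUSB, was singled out after its values were seen. It had 343 and 170 counts in wild type, 303 in resistant replicate 1 and 25832 in resistant replicate 2, where it made up 83.6% of the counts of its gene. Other members counted in a single library were OR7E14P ENST00000530490, an olfactory receptor pseudogene, with 1312 counts in resistant replicate 2, and EP400P1 ENST00000443539 with 1406 counts in wild type replicate 2.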
